A study of Mus musculus with 12 samples.

Results

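The immunoglobulin variable (V) segments are the germline gene pieces from which the antigen-binding ends of antibodies are made, and 169 of the 27785 genes in the deposited expression table are V segments. They were taken by symbol, as every gene whose name starts with Ighv (87 segments of the heavy chain locus on chromosome 12), Igkv (79 segments of the kappa light chain locus on chromosome 6) or Iglv (3 segments of the lambda light chain locus on chromosome 16). By the GENCODE M21 annotation 162 of them are functional-type V genes and 7 are V pseudogenes, and the annotation holds 346 V segments in these loci, so that fewer than all germline segments are represented. The table lists no gene, V segment or other, that is 0 in every library.

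The RNA came from mouse rectum, in 12 libraries of 4 groups. Lgr5-Cdx2-Apc mice (2 libraries) carry Lgr5creER, CDX2creER and floxed Apc, Lgr5-Apc mice (4 libraries) carry Lgr5creER and floxed Apc, and Cdx2-Apc mice (3 libraries) carry CDX2creER and floxed Apc. CreER is a recombinase that tamoxifen activates. Lgr5 marks intestinal stem cells and Cdx2 is a transcription factor of intestinal epithelium, so the deletion of the tumour suppressor Apc is driven from epithelial cells in each of these groups. The control libraries (3) are titled wild type, but their genotype field names the CDX2creER and floxed Apc alleles with WT in brackets, so the labels do not settle which alleles the controls carry. Tamoxifen at 25 mg/kg was given by intraperitoneal injection on 5 consecutive days according to the protocol attached to all samples, while the treatment field is filled in for the 3 mutant groups and not for controls. Nothing in the sources used here says that libraries of a group are separate animals, so p-values measure only the spread between these samples, which may be technical.

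In a developing B cell, 1 heavy chain V segment is joined to a diversity and a joining segment, and 1 light chain V segment to a joining segment, and the joined exon is spliced to a constant region. A plasma cell is the end stage of that lineage and devotes much of its transcription to its own heavy and light chain. In gut mucosa most plasma cells make IgA, which the J chain (Jchain) links into dimers and the epithelial receptor Pigr carries into the lumen. In a bulk library the V segments that are seen therefore sample the clones present, and fewer plasma cells and less antibody RNA per cell cannot be told apart.

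The 3′ ends of 8 V segments on which the results below turn are printed 5′ to 3′ as the last 90 bases of the germline transcript (GENCODE M21, build GRCm38, the mm10 build of the files). Capitals run from the codon of the conserved cysteine to the end of the segment. They mark the V segment's part of the junction, from that cysteine into the third complementarity-determining region. This part meets the joining segment in light chains and the diversity segment in heavy chains.
Igkv6-23 (chr6:70260409-70260955, minus strand): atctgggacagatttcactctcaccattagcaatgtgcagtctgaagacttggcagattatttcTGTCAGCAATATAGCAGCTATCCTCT
Ighv1-39 (chr12:114914599-114915032, minus strand): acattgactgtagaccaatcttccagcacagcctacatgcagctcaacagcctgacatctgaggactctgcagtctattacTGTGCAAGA
Iglv1 (chr16:19085017-19085500, minus strand): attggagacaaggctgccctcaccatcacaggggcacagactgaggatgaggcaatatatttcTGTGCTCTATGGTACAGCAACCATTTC
Ighv1-85 (chr12:116000028-116000461, minus strand): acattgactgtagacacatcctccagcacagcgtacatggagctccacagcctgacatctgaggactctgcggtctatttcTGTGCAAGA
Igkv12-46 (chr6:69764523-69765022, minus strand): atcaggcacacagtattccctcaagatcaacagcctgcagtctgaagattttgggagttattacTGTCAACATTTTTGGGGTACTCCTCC
Igkv4-55 (chr6:69607275-69607828, minus strand): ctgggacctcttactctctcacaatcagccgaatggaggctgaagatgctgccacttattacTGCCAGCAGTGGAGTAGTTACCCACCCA
Ighv3-6 (chr12:114288152-114288582, minus strand): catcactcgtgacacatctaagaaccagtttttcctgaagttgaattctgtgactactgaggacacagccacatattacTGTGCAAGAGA
Igkv12-44 (chr6:69814631-69815154, minus strand): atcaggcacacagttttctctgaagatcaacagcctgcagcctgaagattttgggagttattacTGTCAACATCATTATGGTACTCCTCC

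Many V segments are near copies, which bears on how far a value belongs to a single segment. Of the 169 segments, 23 share no 50-base window of their transcript with another annotated V segment, 21 share more than 50% of their windows, and the median share is 23.51%. The sources used here do not say how reads matching several segments were divided. Igkv6-23 and Igkv6-15 are 94.52% identical over 347 aligned bases, and their last 150 bases differ at 8 positions, in capitals here.
Igkv6-23: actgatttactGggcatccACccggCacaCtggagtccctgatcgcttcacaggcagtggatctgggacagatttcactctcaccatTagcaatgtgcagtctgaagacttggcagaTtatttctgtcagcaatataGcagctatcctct
Igkv6-15: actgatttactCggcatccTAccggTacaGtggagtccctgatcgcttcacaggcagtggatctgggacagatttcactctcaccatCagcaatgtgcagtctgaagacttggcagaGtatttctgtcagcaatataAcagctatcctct
The lambda segments Iglv1 and Iglv2 are 96.72% identical and differ at 5 positions of the last 150 bases.
Iglv1: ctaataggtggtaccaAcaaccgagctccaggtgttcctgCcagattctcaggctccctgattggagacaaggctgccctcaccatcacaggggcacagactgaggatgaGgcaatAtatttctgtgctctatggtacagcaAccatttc
Iglv2: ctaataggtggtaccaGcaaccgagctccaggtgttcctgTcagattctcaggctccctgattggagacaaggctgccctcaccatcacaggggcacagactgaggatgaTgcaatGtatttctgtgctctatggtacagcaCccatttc
Iglv1 was above 0 in all 12 libraries, and Iglv2 was above 0 in 3.

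V segment RNA was scarce in every library with the Lgr5 driver and varied widely in the others. The values are FPKM, fragments per kilobase of transcript with each library scaled to the same number of fragments, so levels of different segments can be set side by side. The summed FPKM of the 169 segments came to 9.90 and 8.18 for Lgr5-Cdx2-Apc, 12.6, 12.8, 36.9 and 11.5 in the Lgr5-Apc libraries, 518.5, 82.0 and 43.7 in the Cdx2-Apc libraries, and 19.6, 1085 and 494 in the control libraries. Group means were 9.04 ± 1.22 FPKM in Lgr5-Cdx2-Apc (SD, n = 2), 18.4 ± 12.3 FPKM in Lgr5-Apc (SD, n = 4), 215 ± 264 FPKM in Cdx2-Apc (SD, n = 3) and 533 ± 534 FPKM in control (SD, n = 3). The 6 libraries with the Lgr5 driver lay below all Cdx2-Apc libraries, but control 1 lay among them. In Cdx2-Apc and control the SD was as large as the mean.

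Control 1 stands apart from the other controls, and results are given with and without it. It had 13 segments above 0, against 141 and 113 in control 2 and control 3. It also stands apart in tissue makeup. Its mean log2(FPKM + 1) over 14 squamous epithelium genes was 6.93, against 2.71 and 2.45 in the other controls. The same score was 6.86 and 8.49 in Lgr5-Cdx2-Apc, 5.15, 9.67, 8.88 and 1.26 in Lgr5-Apc, and 1.27, 1.69 and 4.88 in Cdx2-Apc. V segment RNA was thus also low in Lgr5-Apc 4, whose squamous score was the lowest of all 12 libraries. The part of squamous tissue in the V segment levels was not tested.

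**Figure D1:**
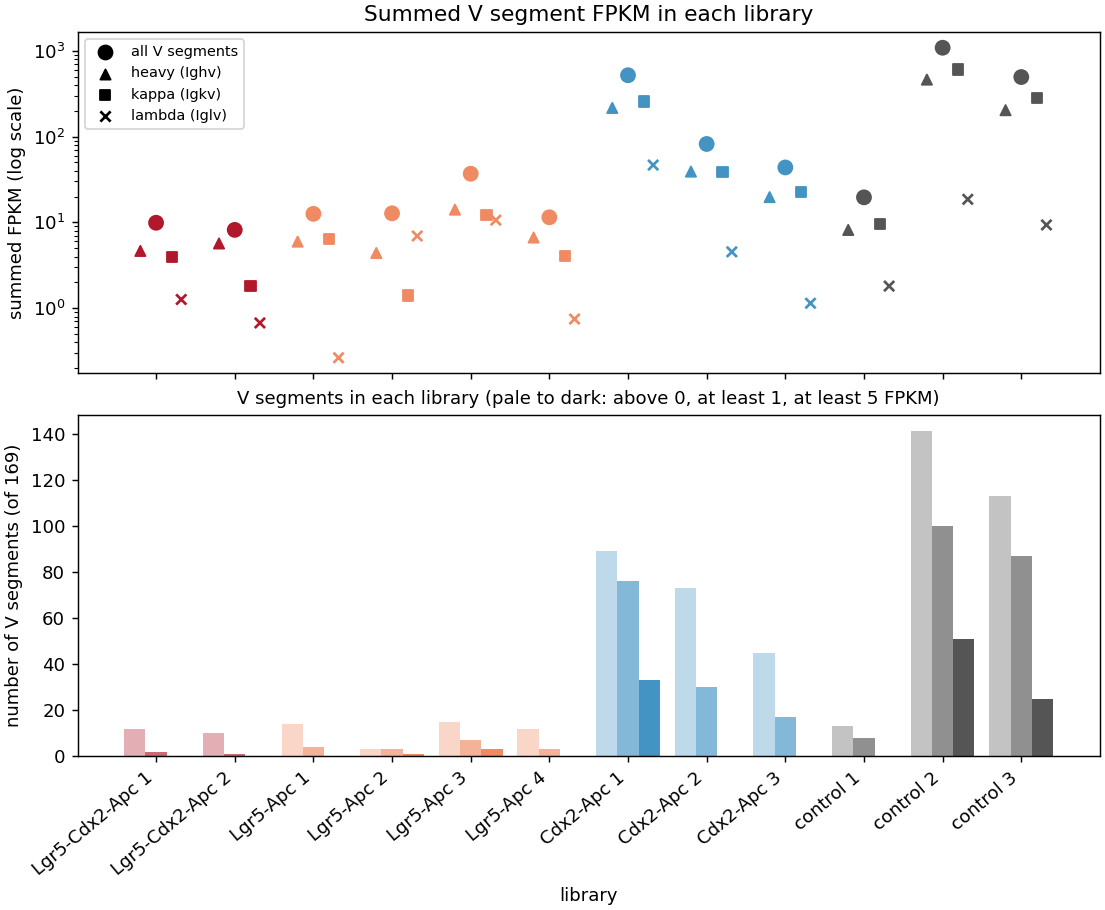
Top, the summed FPKM of all V segments and of each locus in each library on a log scale. Bottom, the number of V segments above 0, at 1 FPKM or more and at 5 FPKM or more. The libraries with the Lgr5 driver and control 1 have at most 15 segments above 0, and the other 5 libraries have 45 to 141.

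Few segments were detected where the sums were low. There were 12 and 10 segments above 0 in the Lgr5-Cdx2-Apc libraries, 14, 3, 15 and 12 in the Lgr5-Apc libraries, 89, 73 and 45 in the Cdx2-Apc libraries, and 13, 141 and 113 in the control libraries. At 1 FPKM or more the numbers were 2 and 1 in Lgr5-Cdx2-Apc, 4, 3, 7 and 3 in Lgr5-Apc, 76, 30 and 17 in Cdx2-Apc, and 8, 100 and 87 in control. The lowest value above 0 was between 0.23 and 0.53 FPKM in 10 libraries, 0.75 FPKM in Lgr5-Apc 4 and 1.41 FPKM in Lgr5-Apc 2. The table gives no read counts, so the depth is unknown, and a segment listed at 0 was not detected rather than shown to be absent.

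Of the 169 segments, 127 were listed at 0 in all 6 libraries with the Lgr5 driver (75.15%), and 1 was listed at 0 in all 6 libraries without it. Among the 27616 other genes, which were not matched to the segments in level, the shares were 4.84% and 7.49%. No listed segment is 0 in every library, so segments seen only in control 2, control 3 or Cdx2-Apc 1 partly fix this split in advance. Control 1, without the Lgr5 driver, itself had only 13 segments above 0. Levels of 5 FPKM or more in at least 1 library were reached by 3 segments in the libraries with the Lgr5 driver and by 66 segments in the libraries without it. The segment was highest in control 2 in 86 cases, in Cdx2-Apc 1 in 39, in control 3 in 31 and in another library in 13. There were 44 segments seen in a single library. The 7 pseudogenes stayed at or under 0.96 FPKM, and all their values above 0 came from Cdx2-Apc 1, Cdx2-Apc 2, control 2 and control 3.

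**Figure D2:**
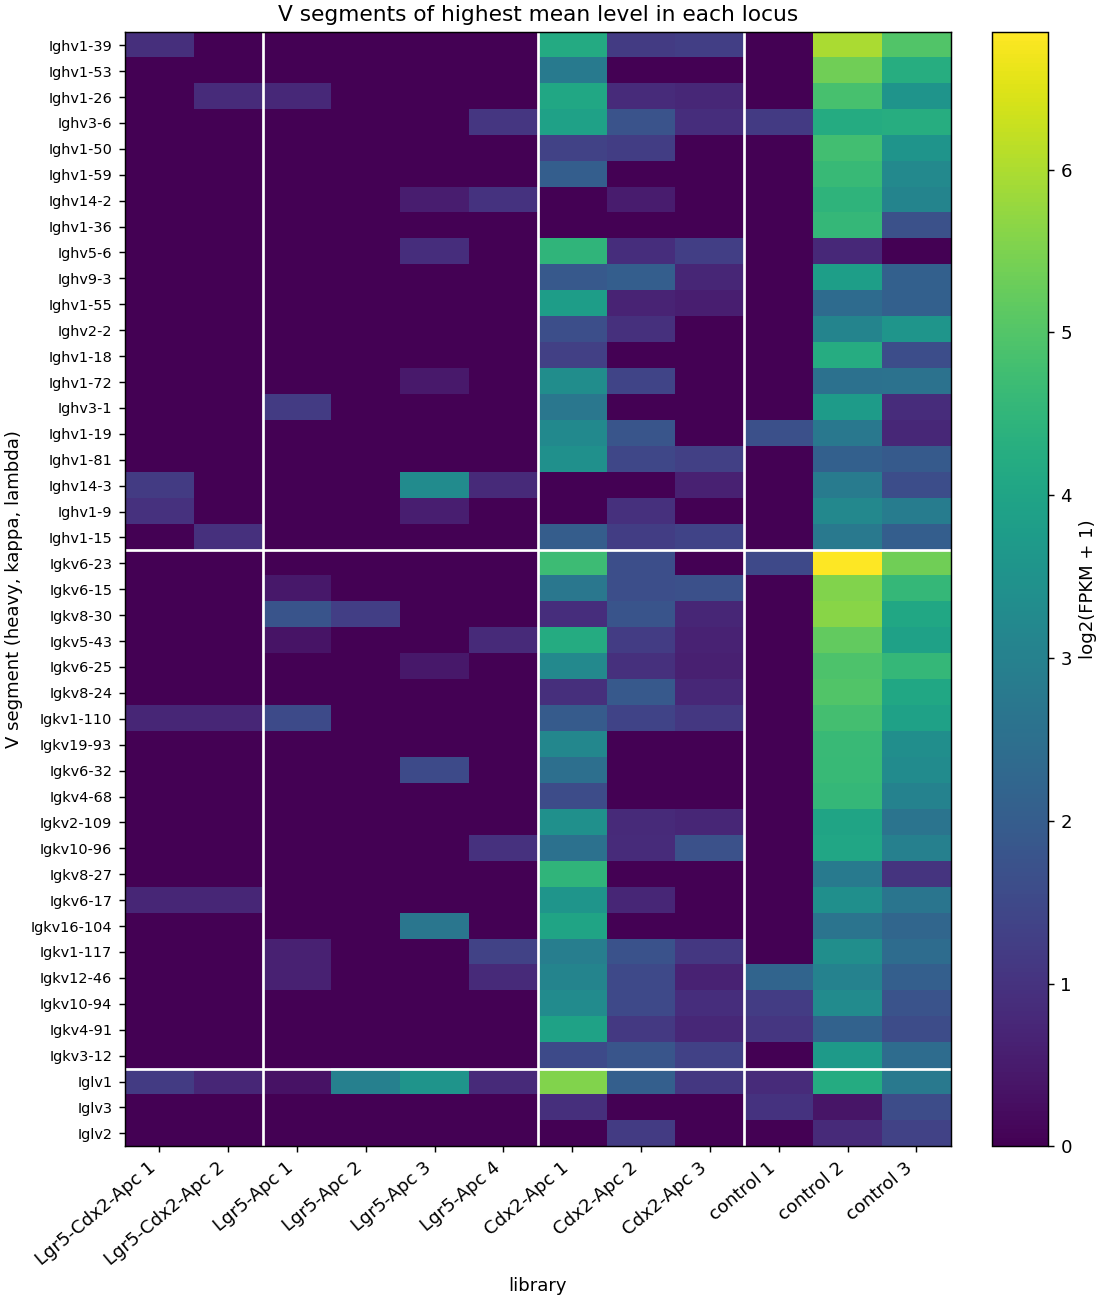
Each cell is the log2(FPKM + 1) of a V segment (rows, those with the highest mean in the heavy, kappa and lambda loci, groups weighted equally) in a library (columns). The columns of control 2, control 3 and Cdx2-Apc 1 are lit over most rows, and in the columns of the Lgr5-driver libraries and control 1 most cells are at 0.

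Where V segments were plentiful, many segments shared the RNA. The 10 highest segments held 39.96%, 32.4% and 39.4% of the summed V segment FPKM in the Cdx2-Apc libraries, and 42.4% and 42.9% in control 2 and control 3. They held 89.3% and 100% in Lgr5-Cdx2-Apc, 90.4%, 100%, 95.2% and 86.9% in Lgr5-Apc, and 89.2% in control 1, where the total rests on few detected segments and the share is set largely by that number. The effective number of segments (the exponential of the Shannon entropy of the shares) was 54.8, 58.6 and 40.1 in Cdx2-Apc and 58.2 and 60.3 in control 2 and control 3. This number rises with the number of segments detected as well as with evenness. Cdx2-Apc 2 came close to control 2 and control 3 in it at a sum of 82.0 FPKM. Cdx2-Apc 2 had 73 segments above 0, against 141 and 113 in those controls, and 0 at 5 FPKM or more, against 51 and 25.

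The leading segments differed between libraries. Igkv6-23, a kappa segment, led control 2 at 113.9 FPKM and control 3 at 40.01 FPKM. It was 24.8, 2.10 and 0 FPKM in Cdx2-Apc and 1.83 FPKM in control 1, and it was listed at 0 in all Lgr5-Cdx2-Apc and Lgr5-Apc libraries. The heavy chain segment with the highest mean, Ighv1-39, had 0.878 and 0 FPKM in Lgr5-Cdx2-Apc, 0 FPKM in the 4 Lgr5-Apc libraries, 17.3, 1.27 and 1.43 FPKM in Cdx2-Apc, and 0, 61.7 and 30.6 FPKM in control. The groups without the Lgr5 driver were each led by 1 or 2 libraries for both segments, and control 1 fell with the low libraries. Ighv1-53 was seen only outside the Lgr5 driver, with 5.99, 0 and 0 FPKM in Cdx2-Apc and 0, 39.99 and 18.1 FPKM in control. Igkv8-30 led Lgr5-Apc 1 at 2.41 FPKM and was 1.41 FPKM in Lgr5-Apc 2, 0.85, 2.43 and 0.677 FPKM in Cdx2-Apc, and 0, 48.2 and 15.8 FPKM in control. The tops of the poorest libraries were low in absolute level. Ighv14-3 led Lgr5-Cdx2-Apc 1 at 1.28 FPKM, Ighv1-67 led Lgr5-Cdx2-Apc 2 at 1.46 FPKM and was listed at 0 in the other 11 libraries, and Igkv1-117 led Lgr5-Apc 4 at 1.54 FPKM. Igkv12-46 led control 1 at 3.65 FPKM.

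Iglv1, the V segment of most mouse lambda light chains, was detected in every library. It had 1.26 and 0.673 FPKM in Lgr5-Cdx2-Apc, 0.264, 6.94, 10.6 and 0.748 FPKM in Lgr5-Apc, 45.7, 3.24 and 1.14 FPKM in Cdx2-Apc, and 0.807, 17.5 and 5.76 FPKM in control. It led Cdx2-Apc 1, Lgr5-Apc 2 and Lgr5-Apc 3. In Lgr5-Apc 2 it held 54.5% of the V segment sum and in Lgr5-Apc 3 28.8%. The lambda constant region Iglc3 was high in the same libraries of that group, with 0, 5.01, 10.1 and 0 FPKM in Lgr5-Apc. Iglc3 was 0.398 and 0.821 FPKM in Lgr5-Cdx2-Apc, 1.76, 1.75 and 0.34 FPKM in Cdx2-Apc, and 0, 2.25 and 0.983 FPKM in control. In Cdx2-Apc 1 the lambda constant region that went with Iglv1 was Iglc1, at 25.8 FPKM. The kappa share of light chain constant RNA was 72.5% and 45.8% in Lgr5-Cdx2-Apc and 100%, 4.54%, 25.0% and 72.0% in Lgr5-Apc, against 88.3%, 83.1% and 85.6% in Cdx2-Apc and 94.0%, 97.0% and 95.4% in control. From the V segments the kappa share was 75.95% and 73.1% in Lgr5-Cdx2-Apc and 96.0%, 16.8%, 53.5% and 84.4% in Lgr5-Apc. It was 84.6%, 89.4% and 95.2% in Cdx2-Apc and 84.2%, 97.0% and 96.8% in control. In the libraries with the Lgr5 driver both shares rest on low values, with Igkc between 0.238 and 4.30 FPKM. Lgr5-Apc 2 and Lgr5-Apc 3 were also the highest of their group in the squamous score above. Outside that group, Lgr5-Cdx2-Apc 1, Lgr5-Cdx2-Apc 2 and control 1 scored 6.86, 8.49 and 6.93. Their Iglv1 was 1.26, 0.673 and 0.807 FPKM, and their kappa share of constant RNA 72.5%, 45.8% and 94.0%. The part of squamous tissue in the lambda levels was not tested.

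Across libraries the V segment sum moved with J chain RNA. Jchain was 0.375 and 0.247 FPKM in Lgr5-Cdx2-Apc, 0.872, 0.954, 3.44 and 1.02 FPKM in Lgr5-Apc, 43.6, 6.95 and 4.32 FPKM in Cdx2-Apc, and 1.67, 94.1 and 42.6 FPKM in control. The V segment sum was 10.1 to 14.4 times the Jchain level in the 10 libraries of Lgr5-Apc, Cdx2-Apc and control, and 26.4 and 33.1 times in Lgr5-Cdx2-Apc. Igkc, the kappa constant region, was 1.65 and 1.61 FPKM in Lgr5-Cdx2-Apc, 4.30, 0.238, 3.88 and 1.97 FPKM in Lgr5-Apc, 214, 22.5 and 18.8 FPKM in Cdx2-Apc, and 7.78, 491 and 187 FPKM in control. The summed Igkv FPKM was 1.19, 1.71 and 1.22 times Igkc in Cdx2-Apc and 1.24, 1.23 and 1.51 times in control. The ratio was 2.42 and 1.14 in Lgr5-Cdx2-Apc and 1.48, 5.9, 3.15 and 2.06 in Lgr5-Apc.

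**Figure D3:**
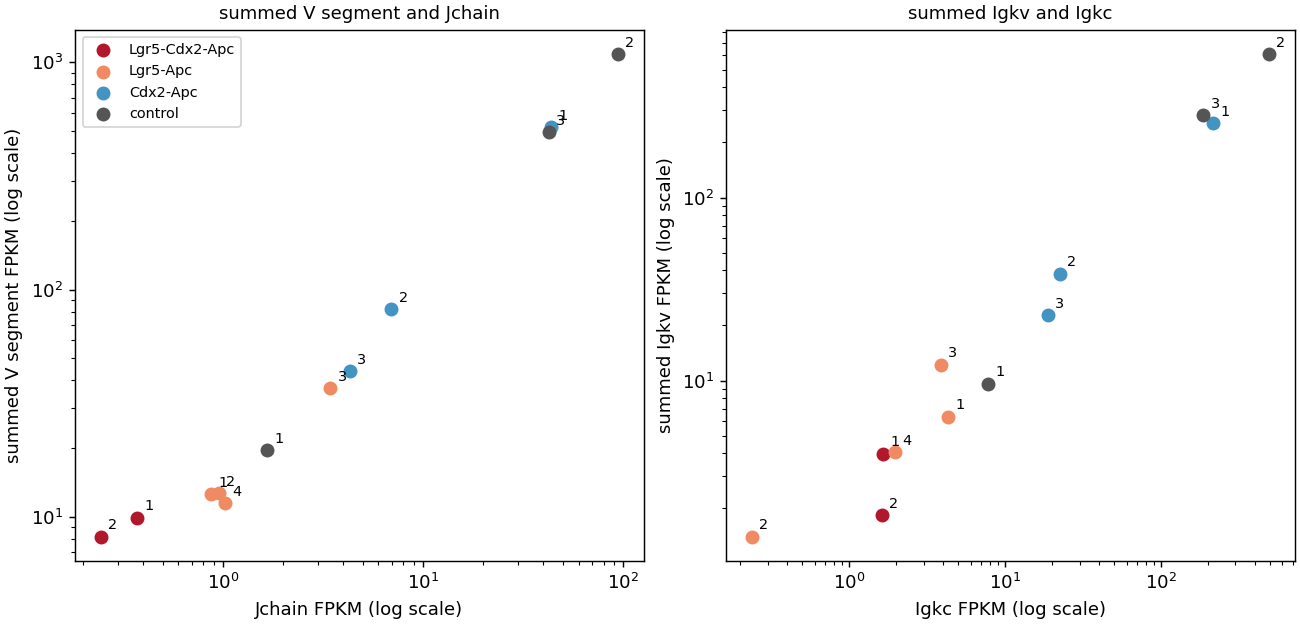
Left, the summed V segment FPKM against Jchain. Right, the summed kappa V segment FPKM against Igkc. Each point is a library, numbered by replicate, and both axes are logarithmic. Libraries rich in V segments are rich in Jchain and Igkc, from control 2 (1085 FPKM of V segments and 94.1 FPKM of Jchain) down to Lgr5-Cdx2-Apc 2 (8.18 and 0.247 FPKM).

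Igha, the IgA constant region, was 0.734 and 0.781 FPKM in Lgr5-Cdx2-Apc, 1.62, 0.942, 4.18 and 1.21 FPKM in Lgr5-Apc, 57.2, 8.54 and 6.21 FPKM in Cdx2-Apc, and 1.38, 139.7 and 53.0 FPKM in control. Ighm, the IgM constant region that naive B cells also transcribe, was 3.91 and 6.18 FPKM in Lgr5-Cdx2-Apc, 1.38, 4.16, 0.88 and 1.22 FPKM in Lgr5-Apc, 3.04, 3.79 and 2.61 FPKM in Cdx2-Apc, and 0.599, 4.79 and 4.69 FPKM in control. Igha thus spanned a wide range over libraries and Ighm a narrow one. Igha made up 13.9% and 10.6% of heavy chain constant region FPKM in Lgr5-Cdx2-Apc, 53.7%, 17.9%, 81.0% and 48.6% in Lgr5-Apc, 93.1%, 58.4% and 63.6% in Cdx2-Apc, and 64.7%, 95.0% and 90.1% in control, so that libraries rich and poor in V segments overlapped in this share. The 3 IgG constant regions in the table (Ighg1, Ighg2b and Ighg2c) stayed at or under 0.712 FPKM in every library. The table holds 0 joining or diversity segments under their symbols.

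The libraries without the Lgr5 driver did not draw on the same segments to the same degree. Over the 169 segments the rank correlation of control 2 with control 3 was 0.71, and 17 of the 20 highest segments were shared. Cdx2-Apc 2 with Cdx2-Apc 3 gave 0.51 and 10 shared, Cdx2-Apc 1 with those libraries 0.40 and 0.25, and the Cdx2-Apc libraries with control 2 and control 3 0.24 to 0.43, with 5 to 7 of the top 20 shared. These correlations are across segments of 2 libraries each, describe these libraries only, and rest in part on the shared zeros. Over 17263 other genes, all at 1 FPKM or more in at least 2 libraries, the same pairs had rank correlations of 0.943 to 0.964. The 169 segments were not filtered in this way, and 72 of them did not reach that level. The segments and the other genes are therefore not matched for level here.

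Ighv1, with 48 of the 87 Ighv segments, was the largest heavy chain family in Cdx2-Apc and control. It held 53.8% and 55.8% of summed Ighv FPKM in Lgr5-Cdx2-Apc and 23.0%, 0%, 24.0% and 0% in Lgr5-Apc, where few segments were detected. It held 57.1%, 48.9% and 46.1% of summed Ighv FPKM in Cdx2-Apc, and 67.3%, 67.4% and 65.9% in control. Ighv5, a family of 8 segments near the constant regions, held 18.0%, 7.65% and 20.2% in Cdx2-Apc and 0%, 3.44% and 4.79% in control, and the groups did not overlap. That held for 5 of the 31 Ighv and Igkv families (Ighv5, Ighv8, Igkv3 and Igkv9 higher and Ighv1 lower in Cdx2-Apc), and the shares of control 1 rest on few detected segments. All of the higher families held 0% in control 1, and Ighv8 held 2.91% in Cdx2-Apc 1 against 2.76% in control 2. How often groups of this size fail to overlap over all genes was not computed, so no conclusion is drawn from the count. Within Ighv5, Ighv5-6 had 21.1, 0.856 and 1.40 FPKM in Cdx2-Apc and 0, 0.728 and 0 FPKM in control. Among kappa families Igkv6 (8 segments) held 21.5%, 16% and 14.3% in Cdx2-Apc and 19.1%, 36.9% and 35.4% in control. Igkv3 (8 segments) held 10.3%, 12.9% and 11.6% in Cdx2-Apc and 0%, 3.93% and 3.04% in control. Igkv4, the kappa family with the most members here (22), held 18.5%, 19.3% and 17.2% in Cdx2-Apc and 21.3%, 9.68% and 12.4% in control. These shares were read off after their values were seen among 14 Ighv and 17 Igkv families, and none was tested.

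**Figure D4:**
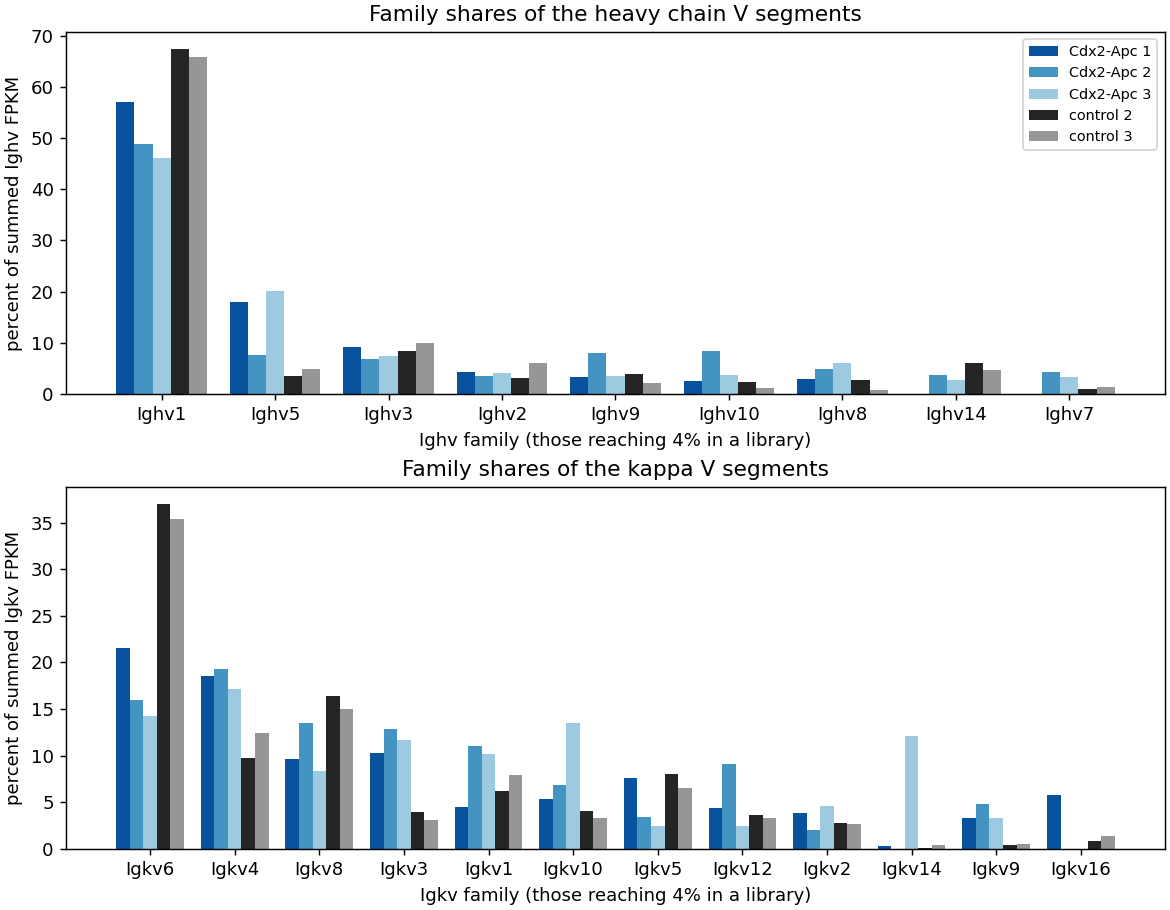
Bars give the percent of summed Ighv FPKM (top) and Igkv FPKM (bottom) that each family holds in the 3 Cdx2-Apc libraries and in control 2 and control 3. Ighv1 leads in all 5, at 46.1% to 57.1% in Cdx2-Apc and 65.9% and 67.4% in control, and Igkv6 is taller in the controls.

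In the 5 libraries rich in V segments, use of the heavy chain locus was spread over near and far segments. Split by distance from Ighm, the 29 nearest segments (0.168 to 0.88 Mb) held 35.9%, 35.1% and 38.1% of the summed Ighv FPKM in Cdx2-Apc and 25.4% and 29.0% in control 2 and control 3. The 29 farthest segments (1.53 to 2.58 Mb) held 34.8%, 29.6% and 27.2% in Cdx2-Apc and 34.2% and 36.7% in control 2 and control 3. The remaining 29 segments lay between them. In Lgr5-Apc, with few segments detected, the farthest 29 held 0%, 0%, 2.64% and 0%. In the other libraries with few segments they held 14.2% and 25.8% (Lgr5-Cdx2-Apc) and 40.7% (control 1), each time from 1 detected segment.

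**Figure D5:**
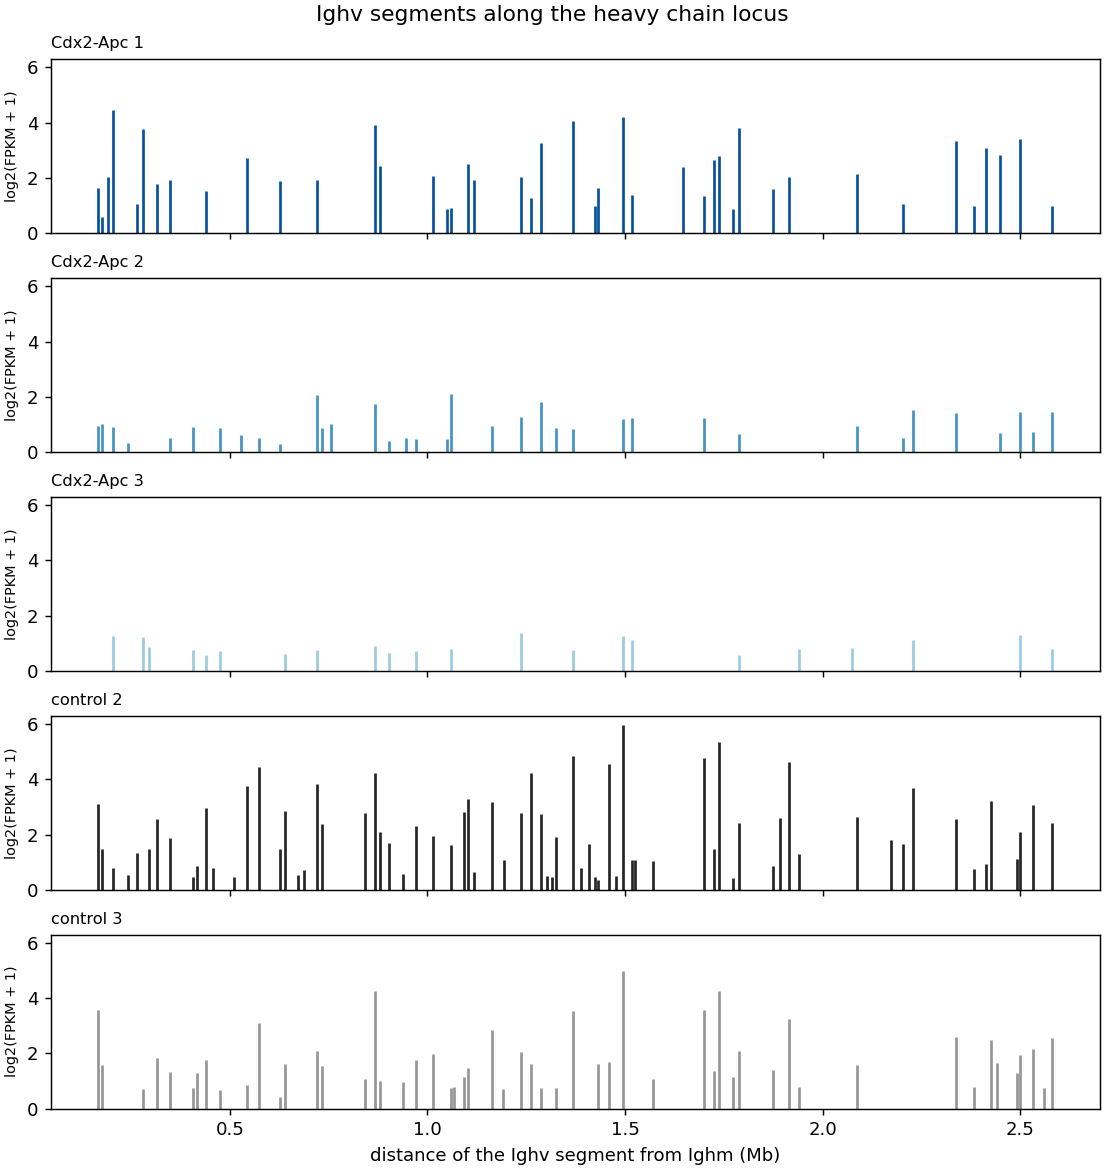
Each line is an Ighv segment at its distance from Ighm in Mb, with its log2(FPKM + 1) in the 3 Cdx2-Apc libraries and in control 2 and control 3. Segments above 0 lie among the nearest, middle and farthest 29 segments in each of the 5 libraries, and the farthest segment (2.58 Mb, Ighv1-85) is above 0 in all 5.

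Each V segment was then tested with limma on log2(FPKM + 1) in a fit of all genes that reached 1 FPKM in at least 2 libraries, with p-values adjusted by the Benjamini-Hochberg method over 17360 genes and a call at an adjusted p below 0.05. The filter kept 97 of the 169 segments. Of these, 96 would have passed on the libraries without the Lgr5 driver alone and 4 on the others alone, so a lower level with the Lgr5 driver is partly built into which segments were tested. Counts below are over the 97 only.

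In Lgr5-Cdx2-Apc against control, 5 segments fell and 0 rose. The share of segments called lower is to be read against 8.55% of all genes called lower and 10.5% called higher in that comparison, and it lay below the background. The 5 are Ighv1-85 (limma adjusted p = 0.000424), Igkv12-46 (limma adjusted p = 0.0223), Igkv4-55 (limma adjusted p = 0.0435), Ighv3-6 (limma adjusted p = 0.0470) and Igkv12-44 (limma adjusted p = 0.0493), and each was listed at 0 in both Lgr5-Cdx2-Apc libraries, so no fold is given. Unadjusted p-values below 0.05 numbered 41 of 97 (42.3%, against 36.9% of all genes), and 96 of the 97 fitted differences were negative, with a median of -1.40 on the log2(FPKM + 1) scale against 0.07 over all genes. That median depends on the pseudocount, and was -3.29 at 0.1 FPKM, because 82 of the 97 segments were listed at 0 in both Lgr5-Cdx2-Apc libraries. The segment with the highest mean, Igkv6-23, did not pass (limma adjusted p = 0.0528).

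The calls turn on control 1. All 5 segments were among the 13 above 0 there. Ighv1-85 was called whichever library was left out. Leaving out another library gave 1 (Lgr5-Cdx2-Apc 1, Lgr5-Cdx2-Apc 2 or control 3), 2 (Lgr5-Apc 1, Lgr5-Apc 3, Cdx2-Apc 2 or control 2), 3 (Cdx2-Apc 3), 5 (Lgr5-Apc 2 or Lgr5-Apc 4) or 9 calls (Cdx2-Apc 1). Without control 1, 58 of 96 tested segments were called lower in Lgr5-Cdx2-Apc, the 5 included, against 18.9% of all genes called in either direction. In Lgr5-Apc against control the number was 1 with all libraries (0.0115% of all genes were called lower, and 0% higher) and 27 without control 1 (0.186% called in either direction). There 62 of the 97 segments had an unadjusted p below 0.05 (63.9%, against 10.8% of all genes). In Cdx2-Apc against control it was 0 with all libraries (0.0288% of all genes called higher, 0.0403% in either direction, and 19 segments with an unadjusted p below 0.05, 19.6% against 1.64% of all genes) and 14 without control 1 (0.128%). Control 1 was singled out by its own V segment values, and the segments tested passed the filter through the libraries where they are high, so the counts without it only describe how far the calls rest on that library.

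Ighv1-85 was the segment called in most comparisons. It was listed at 0 in all Lgr5-Cdx2-Apc and Lgr5-Apc libraries, and had 0.972, 1.71 and 0.722 FPKM in Cdx2-Apc and 3.32, 4.28 and 4.94 FPKM in control. The controls lay above all other libraries and lay within 3.32 to 4.94 FPKM, control 1 included. It was the segment called lower in Lgr5-Apc against control (limma adjusted p = 0.00207), and was called lower in Lgr5-Cdx2-Apc against Cdx2-Apc (limma adjusted p = 0.0112). In Cdx2-Apc against control its difference was -1.29 ± 0.20 (SE) on the log2(FPKM + 1) scale and did not pass (limma adjusted p = 0.126). Ighv1-85 lies farthest of the 87 Ighv segments from Ighm. It made up 17.0% of the V segment sum in control 1, where it ranked 2nd, and 0.395% and 1.00% in control 2 and control 3, where it ranked 58th and 27th.

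The other segments called in Lgr5-Cdx2-Apc against control were low to moderate in level. Igkv12-46 was listed at 0 in Lgr5-Cdx2-Apc and had 0.54, 0, 0 and 0.765 FPKM in Lgr5-Apc, 7.5, 1.87 and 0.56 FPKM in Cdx2-Apc, and 3.65, 7.23 and 3.22 FPKM in control. Ighv3-6 was listed at 0 in Lgr5-Cdx2-Apc and in 3 Lgr5-Apc libraries, with 1.14 FPKM in Lgr5-Apc 4, 14.1, 2.35 and 0.866 FPKM in Cdx2-Apc, and 1.24, 17.7 and 18.2 FPKM in control. Igkv4-55 was listed at 0 in all Lgr5-driver libraries and had 3.77, 1.98 and 1.15 FPKM in Cdx2-Apc and 0.911, 1.40 and 6.92 FPKM in control, and Igkv4-55 shares 53.3% of its windows with other segments. Igkv12-44 was listed at 0 in Lgr5-Cdx2-Apc and in 3 Lgr5-Apc libraries, with 0.659 FPKM in Lgr5-Apc 3, 2.58, 0.8289 and 0 FPKM in Cdx2-Apc, and 0.775, 3.34 and 3.28 FPKM in control. In each of these the control values lay above both Lgr5-Cdx2-Apc values, and the Cdx2-Apc and control ranges overlapped.

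Against Cdx2-Apc, 3 segments fell and 0 rose in Lgr5-Cdx2-Apc, where 11.7% of all genes were called lower and 12.1% higher. They were Ighv1-85, Ighv1-42 (limma adjusted p = 0.0167) and Igkv4-55 (limma adjusted p = 0.0450). Without either Lgr5-Cdx2-Apc library 0 segments were called, against 1 without Cdx2-Apc 2, 7 without Cdx2-Apc 3 and 10 without control 1. Ighv1-42 was listed at 0 in all libraries with the Lgr5 driver, and had 1.60, 1.33 and 1.19 FPKM in Cdx2-Apc and 0, 1.09 and 0 FPKM in control. Of the 97 fitted differences 80 were negative and 6 positive, with 12 unadjusted p-values below 0.05 (12.4%, against 39.3% of all genes). Against Lgr5-Apc, 0 segments were called in either direction in limma, where 8.99% of all genes were (5.22% higher), and 0 had an unadjusted p below 0.05, against 29.4% of all genes. There 28 differences were negative and 11 positive, and the rest were 0 because the segment was listed at 0 throughout both groups. The 3 comparisons with control share the control libraries, and the 3 that involve Lgr5-Cdx2-Apc share its 2 libraries.

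The segments nearest to a call in the other directions had these values. In Cdx2-Apc against control, Ighv1-42 (0.89 ± 0.26 on the log2(FPKM + 1) scale, SE) and Ighv5-6 (1.94 ± 0.76, SE) were the leading positive differences, each at a limma adjusted p of 1. Igkv15-103 had 10.9 and 7.59 FPKM in control 2 and control 3 and was listed at 0 in the other 10 libraries, and Ighv1-76 had 8.21 and 4.59 FPKM in the same 2 libraries and was listed at 0 elsewhere. In Lgr5-Cdx2-Apc against control the single positive difference was Ighv11-2, with 0.876 and 0.803 FPKM in Lgr5-Cdx2-Apc and 0.531, 1.78 and 0.336 FPKM in control (0.04 ± 0.50, SE, limma adjusted p = 0.96). Ighv11-2 had 0, 0, 0.244 and 0 FPKM in Lgr5-Apc and 2.72, 0.23 and 0 FPKM in Cdx2-Apc.

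The constant regions gave 1 call among 7 tested, in Lgr5-Cdx2-Apc against control, where 8.55% of all genes were called lower and 10.5% higher. Igkc fell in Lgr5-Cdx2-Apc against control by 5.15 ± 1.52 (SE) on the log2(FPKM + 1) scale (limma adjusted p = 0.0409). That call was lost without Lgr5-Cdx2-Apc 1, Lgr5-Cdx2-Apc 2, Lgr5-Apc 3, Cdx2-Apc 2, Cdx2-Apc 3, control 2 or control 3, with differences of -3.95 to -6.85 over all 12 omissions. Jchain differed by -4.09 ± 1.31 (SE, limma adjusted p = 0.0521) and Igha by -3.90 ± 1.44 (SE, limma adjusted p = 0.0788), and neither passed. Without control 1 both passed, with differences of -5.62 for Jchain and -5.63 for Igha, and Jchain also passed without Cdx2-Apc 1. Ighm differed by 0.66 ± 0.57 (SE, limma adjusted p = 0.419). In Lgr5-Apc against control Igkc differed by -4.90 ± 1.27 (SE, limma adjusted p = 0.404) and passed without control 1 (-6.60), and in Cdx2-Apc against control by -1.0 ± 1.36 (SE, limma adjusted p = 1).

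Of 24 plasma cell genes 19 were tested in Lgr5-Cdx2-Apc against control, 2 rose and 2 fell, shares near the 10.5% higher and 8.55% lower over all genes, with a median of -0.44 against 0.07 over all genes. Herpud1, an endoplasmic reticulum stress gene of many cell types, fell by 0.94 ± 0.19 (SE, limma adjusted p = 0.0130) and Cd38 fell by 3.25 ± 0.72 (SE, limma adjusted p = 0.0166). Cd38 was 12.1 and 2.13 FPKM in Lgr5-Cdx2-Apc, and 45.8, 9.97, 48.5 and 56.4 FPKM in Lgr5-Apc. It was 49.25, 69.85 and 70.4 FPKM in Cdx2-Apc and 43.7, 66.2 and 74.5 FPKM in control. The Lgr5-Cdx2-Apc libraries and Lgr5-Apc 2, lowest in Cd38, also had the lowest columnar epithelium scores (given below). The part of that tissue in Cd38 was not tested. The transcription factors Irf4 (1.76 ± 0.23, SE, limma adjusted p = 0.00192) and Prdm1 (2.21 ± 0.70, SE, limma adjusted p = 0.0496) rose. Prdm1 was 8.54 and 16.4 FPKM in Lgr5-Cdx2-Apc, where Jchain was lowest, against 3.62, 0.939 and 1.40 FPKM in control. Irf4 was called in the 10 omissions in which it was tested, and without either Lgr5-Cdx2-Apc library it missed the filter and was not tested. Prdm1 was lost in 8 of the 12 omissions, those of Lgr5-Apc 3 and of every library of the other groups but control 1. Herpud1 was lost without either Lgr5-Cdx2-Apc library, and Cd38 without Lgr5-Cdx2-Apc 2, control 2 or control 3. Prdm1 was 1.73, 12.8, 9.05 and 1.76 FPKM in Lgr5-Apc, highest in the libraries with the highest squamous scores of that group. In the same comparison 8 of 10 tested T cell genes rose and 0 fell, and the part of T cells or squamous tissue in Irf4 and Prdm1 was not tested. The summed FPKM of 14 T cell genes was 48.9 and 51.3 in Lgr5-Cdx2-Apc, 1.84, 9.42, 6.57 and 5.91 in Lgr5-Apc, 1.61, 2.63 and 1.49 in Cdx2-Apc, and 3.16, 4.67 and 5.34 in control. In Lgr5-Apc and in Cdx2-Apc against control 0 of the 19 plasma cell genes were called by limma, with 5 and 1 at an unadjusted p below 0.05. Of all genes 0.0115% and 0.0403% were called in those comparisons, and 10.8% and 1.64% had an unadjusted p below 0.05.

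B cell genes other than Blnk reached at most 5.6 FPKM in any library. Of 20, 8 were tested, and in Lgr5-Cdx2-Apc against control Cd37 rose (1.30 ± 0.34, SE, limma adjusted p = 0.0287) and Blnk, at 8.27 FPKM or more in every library, fell (-1.28 ± 0.39, SE, limma adjusted p = 0.0444). Without either Lgr5-Cdx2-Apc library neither was called, and Blnk was also lost without any other library but Lgr5-Apc 2 or Lgr5-Apc 4. Cd79b, a subunit of the B cell receptor, was 0.512 and 0.384 FPKM in Lgr5-Cdx2-Apc, 0.131, 0.0755, 0.0545 and 0 FPKM in Lgr5-Apc, 1.12, 1.63 and 0.472 FPKM in Cdx2-Apc, and 0.196, 3.22 and 1.23 FPKM in control. Of 9 germinal centre genes 6 were tested, and Bach2 and Bcl6 rose in that comparison. The B cell and germinal centre counts are to be read against 10.5% of all genes called higher and 8.55% lower. S1pr2 (limma adjusted p = 0.106) and Mybl1 (limma adjusted p = 0.47) were not called. Bcl6 was 19.6 and 21.4 FPKM in Lgr5-Cdx2-Apc, and 3.9, 19.1, 6.2 and 2.25 FPKM in Lgr5-Apc. It was 3.46, 2.09 and 2.9 FPKM in Cdx2-Apc and 6.9, 3.2 and 3.79 FPKM in control. Bach2 was lost without either Lgr5-Cdx2-Apc library, control 2 or control 3, and Bcl6 was lost in 9 of the 12 omissions, all but those of Lgr5-Apc 2, Lgr5-Apc 4 and control 1. Of 11 lymphoid follicle genes 3 were tested, and 0 were called by limma with 3 at an unadjusted p below 0.05, as were 36.9% of all genes. The 6 genes of recombination and early B cells had 4 in the table and 0 past the filter.

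In Lgr5-Cdx2-Apc against control 3 of 11 tested genes of IgA transport, homing and survival fell (Pigr, Ccl28 and the plasma cell survival factor Tnfsf13) and 2 rose, where 8.55% of all genes were called lower and 10.5% higher. Pigr, the IgA receptor of epithelium, fell by 4.13 ± 0.82 (SE, limma adjusted p = 0.0116), with 93.2 and 10.8 FPKM in Lgr5-Cdx2-Apc and 414, 744 and 644 FPKM in control. Ccl28, an epithelial chemokine that attracts IgA plasma cells, fell by 3.31 ± 0.62 (SE, limma adjusted p = 0.00974), with 6.26 and 0.802 FPKM in Lgr5-Cdx2-Apc and 31.8, 37.3 and 35.9 FPKM in control. Pigr was 576, 139, 501 and 606 FPKM in Lgr5-Apc and 633, 830 and 705 FPKM in Cdx2-Apc, and control 1 had the lowest Pigr of the controls. The part of these genes in the V segment levels was not tested. Tnfsf13, named after its values were seen, differed by -1.45 ± 0.45 (SE, limma adjusted p = 0.0483), and lost the call in 9 of the 12 omissions, all but those of Lgr5-Apc 1, Lgr5-Apc 2 and Lgr5-Apc 4. The integrin Itgb7 and the cytokine Tgfb1 rose. Pigr and Ccl28 lost the call without Lgr5-Cdx2-Apc 2, with differences of -2.63 and -2.31. Itgb7 lost it without either Lgr5-Cdx2-Apc library or control 3, and Tgfb1 without either Lgr5-Cdx2-Apc library, Cdx2-Apc 3, control 2 or control 3.

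The makeup of the tissue moved with the comparison of Lgr5-Cdx2-Apc with control. There 8 of 11 columnar epithelium genes fell, 10 of 10 smooth muscle genes fell, 3 of 14 squamous epithelium genes rose, 8 of 9 tested skeletal muscle genes rose, and 1 of 10 tested macrophage and dendritic cell genes rose, where 8.55% of all genes were called lower and 10.5% higher. Columnar genes averaged 6.84 and 4.21 on the log2(FPKM + 1) scale in Lgr5-Cdx2-Apc, 8.39, 6.26, 8.36 and 9.35 in Lgr5-Apc, 8.49, 8.72 and 8.77 in Cdx2-Apc, and 8.0, 8.29 and 8.90 in control. In Lgr5-Apc against control 0 genes of these lists were called by limma, with 7 of 10 smooth muscle genes and 1 of 14 squamous genes at an unadjusted p below 0.05. Of all genes 0.0115% were called there and 10.8% had an unadjusted p below 0.05. The part of these tissues in the V segment levels was not tested.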

How the data were processed

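RNA of 12 mouse rectum libraries in 4 groups was measured by sequencing after column purification with DNase and a directional kit, per the labels' protocols. The authors deposited 1 table of FPKM values per gene and library. STAR, Cufflinks, Cuffdiff and the mm10 build are named in the submitters' processing notes without version or role, and the FPKM unit was read from the values. How multiply mapping reads were shared, which annotation was used and whether libraries were rescaled to each other are not given in the sources used here.

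Of 27831 lines, 25 carried spreadsheet date serials in place of a symbol and were kept unnamed. Symbols that occurred repeatedly (90 lines) were reduced to their line of highest mean, giving 27785 genes. No V segment symbol was repeated. limma 3.58.1 in R 4.3.3 was fitted to log2(FPKM + 1) of 17360 genes at 1 FPKM or more in at least 2 libraries, with 1 term per group, all 12 libraries and empirical Bayes moderation along the intensity trend, and p-values (two-sided) were adjusted by the Benjamini-Hochberg method within each of 5 comparisons. A difference on that scale understates the change of low genes. The fit was tested on simulated data first. Summed FPKM, numbers of segments and shares were computed in Python 3.11.15 with pandas 2.3.3, and alignments with Biopython 1.88. Sequences, positions and gene types come from GENCODE M21. Depth is unknown because the table holds no counts, so no counting interval is given.

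The members and the gene lists were chosen with earlier results of these data known. Segments named in the text are those called in each comparison (or the 3 of smallest p in a direction with no call), the 5 of highest mean in each locus and the top segment of each library, with every constant region and the 4 genes of smallest p in each list. Ighv1-53 and other family or position values quoted beside them follow from these or were chosen after their values were seen. Alternatives were a pseudocount of 0.1 FPKM, no filter, median-of-ratios scaling (from genes above 0 in every library), the replicate number as a block, leaving out each library, and leaving out Lgr5-Apc 2 and Lgr5-Apc 3 together.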

Additional observations from a re-analysis of the deposited data

Results flagged for a closer look

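Outlying libraries could be sought only in Lgr5-Apc, the group of 4. Of 33 quantities checked with Dixon's ratio (at its 95% critical value for 4 samples, which chance passes in about 5% of groups), 15 had a library far from the other 3, and in 11 of these the other 3 libraries were listed at 0, where any detection passes. Lgr5-Apc 3 stood apart 9 times. Its summed V segment FPKM was 36.91, its Jchain 3.444 FPKM and its Ighv14-3 8.778 FPKM. Low detections in the same library were Ighv1-7 at 2.506 FPKM, Ighv5-6 at 0.8767 FPKM, Igkv12-44 at 0.6587 FPKM, Igkv6-25 at 0.3618 FPKM, Ighv11-2 at 0.2437 FPKM and Ighg2b at 0.05319 FPKM. Lgr5-Apc 2 stood apart in Ighm at 4.156 FPKM. In Lgr5-Apc 4 the values were Ighv3-6 at 1.136 FPKM, Ighv10-1 at 0.9842 FPKM and Iglc2 at 0.2917 FPKM, and in Lgr5-Apc 1 Ighv1-26 at 0.7379 FPKM and Igkv6-15 at 0.363 FPKM.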

How the results depend on the processing

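Numbers of segments called depended most on the libraries kept. In Lgr5-Cdx2-Apc against control, 5 calls lower became 8 at a pseudocount of 0.1 FPKM, 2 without the filter, 2 with the replicate block and 3 without Lgr5-Apc 2 and 3, and between 1 and 58 when a library was left out. In Lgr5-Apc against control 1 call became 0 with the replicate block and between 1 and 27 when a library was left out, and in Cdx2-Apc against control 0 became between 0 and 14. In Lgr5-Cdx2-Apc against Cdx2-Apc 3 calls became 9 at a pseudocount of 0.1 FPKM and between 0 and 10 when a library was left out. Where a single Lgr5-Cdx2-Apc library was left, it was assumed to vary like the other groups. No pairing by replicate number was seen: same-numbered libraries had a median correlation of deviations of -0.02 over 15 pairs, with 5 over 0.1, against 0.01 for 38 other pairs, with 14 over 0.1. Deviations from the mean of a small group are forced to cancel, so these correlations cannot exclude a pairing.

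Counting a segment as present from 1 FPKM lowered the mean number to 1.5 in Lgr5-Cdx2-Apc, 4.25 in Lgr5-Apc and 41.0 in Cdx2-Apc. Within the heavy chain locus alone the 10 highest segments held 100% in Lgr5-Apc and 58.2% in Cdx2-Apc. The 100% was fixed in advance, because the Lgr5-Apc libraries had only 6, 1, 8 and 7 Ighv segments above 0. Of 42 gene differences called, 10 stayed called under all alternatives in which they were tested (4 of these missed the filter without either Lgr5-Cdx2-Apc library) and 32 lost the call under at least 1, while 13 of 52 uncalled ones gained it. The following uncalled differences changed sign. Ighv11-2 in Lgr5-Cdx2-Apc against control was -0.01 under median-of-ratios scaling, -0.11 with the replicate block and between -0.17 and 0.07 leaving out a library. Iglv1 against Lgr5-Apc was 0.39 without Lgr5-Apc 2 and 3. Iglc3 was 0.10 at a pseudocount of 0.1 FPKM and between -0.67 and 0.18 leaving out a library in Lgr5-Cdx2-Apc against control, and in Lgr5-Apc against control -0.90 without Lgr5-Apc 2 and 3 and between -0.03 and 1.12. Leaving out a library put Lgr5-Cdx2-Apc against Cdx2-Apc between -0.21 and 0.98 for Ighv14-3 and between -0.15 and 0.38 for Igkv2-137. It put Cdx2-Apc against control between -2.46 and 0.49 for Igha, -0.48 and 0.45 for Ighm, -0.02 and 0.43 for Ighd, -2.71 and 0.19 for Igkc, -0.58 and 1.18 for Iglc1, -0.23 and 0.62 for Iglc3, and -2.38 and 0.20 for Jchain. The cause was not tested.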
